A study of Mus musculus with 2 samples.

Results

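Type A intercalated cells were taken from 2 single-cell libraries of mouse kidney and numbered 89 of the 14152 barcodes kept. A barcode was kept with 2000 to 150000 unique molecular identifiers (UMIs, each counting 1 captured transcript) and at most 55% of them from mitochondrially encoded genes. A type A cell then had at least 5 UMIs of Slc4a1 and Aqp6 together, making up at least 0.03% of its UMIs. This sum had to lie above that of Slc26a4, Insrr and Hmx2, genes of type B and non-A intercalated cells, and at or above that of Aqp2, Aqp3 and Scnn1g, genes of principal cells. A barcode with any UMI of Ptprc, the leukocyte common antigen, was not taken. Because these 9 genes chose the cells, their levels are given only as a description.

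Both libraries were labelled as kidney of wildtype male C57BL/6J animals aged 19 weeks. The ischemia library was the kidney that underwent 27 min of unilateral ischemia and 24 h of reperfusion, and the control library was the uninjured contralateral kidney. The control is therefore a kidney of an operated animal, not of an untouched one. There was 1 library per condition, so library and condition cannot be told apart and no test between them was possible.

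Type A intercalated cells are the acid-secreting cells of the collecting duct. Proton pumps in their apical membrane, the vacuolar H+-ATPases (V-ATPases), move acid into the urine, while the chloride-bicarbonate exchanger AE1, encoded by Slc4a1, returns bicarbonate to the blood. Type B cells have the opposite polarity and secrete bicarbonate through pendrin (Slc26a4), and principal cells, their neighbours, take up sodium and water. Intercalated cells also release antimicrobial proteins into the urine.

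The control library held 57 type A cells among 7482 kept barcodes, a share of 0.762% (exact 95% interval 0.577 to 0.986%). The ischemia library held 32 among 6670, a share of 0.480% (0.328 to 0.677%). These 2 intervals overlap, and with the unmixed cells defined below the shares were 0.414% and 0.360%. The shares also depend on the level of Slc4a1, which helped to choose the cells and was lower in ischemia. Fewer ischemia cells may therefore have reached the limits. A choice on Aqp6 alone, given below, took fewer control cells but the same 32 ischemia cells. The difference in shares is therefore a description. Exact intervals here and below cover counting error only, not differences between kidneys, and the shares also depend on which cells survived enzymatic dissociation, which was not tested. Depth was alike in both libraries: type A cells had a median of 20799 UMIs (2224 to 61598) in the control and 19799.5 (4431 to 74246) in ischemia. Summed over cells, 1264127 and 776624 UMIs were available, so that 3 UMIs, the floor used here, correspond to 2.37 and 3.86 CPM (UMIs of a gene scaled to a common total of 1000000). The median share of mitochondrial UMIs was 22.2% in the control and 18.1% in ischemia.

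Few barcodes lay at the edge of the limit of 5 UMIs. Exactly 5 UMIs of Slc4a1 and Aqp6 were counted in 6 control cells and 1 ischemia cell, which had a median of 8.5 and 4 UMIs of Atp6v1g3. Just outside, 2 control barcodes and 1 ischemia barcode met every other criterion with exactly 4 UMIs, and had a median of 4.5 and 8 UMIs of Atp6v1g3. Another 3 ischemia and 0 control barcodes had at least 5 UMIs but under 0.03%. Their median was 189 UMIs of Atp6v1g3, beside 107 in ischemia type A cells. A larger set, 41 control and 16 ischemia barcodes, had enough Slc4a1 and Aqp6 but more of the principal cell genes. In each library 12 barcodes were left out only for a Ptprc UMI. Of all deposited barcode sequences, 88 occurred in both libraries, but none was a type A cell in both.

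Some type A barcodes also carried genes of neighbouring segments, and more of them were in the control. The sum of the connecting and distal tubule genes Calb1, Slc12a3 and Pvalb exceeded that of Slc4a1 and Aqp6 in 8 control cells and in 0 ischemia cells. A barcode was called unmixed when 3 times each of the type B, principal, distal and proximal marker sums stayed below the Slc4a1 and Aqp6 sum, which left 31 control and 24 ischemia cells. The proximal sum passed this limit in 10 control and 2 ischemia cells, the principal sum in 11 and 4, and the distal sum in 14 and 2. Values in unmixed cells stand beside the results they bear on most. Scrublet, a doublet caller, marked 1 control and 0 ischemia barcodes and was taken not to have worked.

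**Figure D1:**
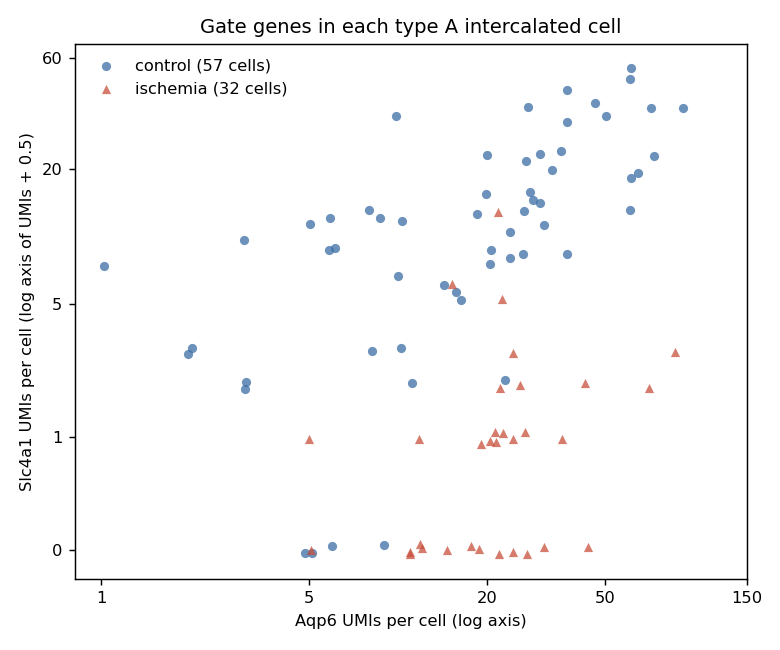
UMIs of Aqp6 (horizontal axis) and of Slc4a1 (vertical axis) in each type A cell, with 57 control and 32 ischemia cells as points. Ischemia cells lie low on the Slc4a1 axis, and 13 of the 32 hold no Slc4a1 UMI against 4 of the 57 control cells.

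The label was checked on genes that the definition did not use. Atp6v1g3 and Atp6v0d2, V-ATPase subunits restricted largely to intercalated cells in the kidney, were both detected in 56 of 57 control and 31 of 32 ischemia cells. Atp6v1g3 had a UMI in 15.6% of control and 12.9% of ischemia thick ascending limb cells, and Atp6v0d2 in 11.5% and 47.5%. Control principal cells had a UMI of Atp6v1g3 in 40.9% and of Atp6v0d2 in 28.0% of cells, so detection alone was not particular to intercalated cells. After each cell was thinned to 2000 UMIs, Atp6v0d2 was detected in 75.4% and 68.8% of type A cells, in 2.69% and 8.33% of thick ascending limb cells and in 14% and 5.02% of principal cells. Foxi1, the transcription factor of the intercalated lineage, had a UMI in 82.5% of control and 93.8% of ischemia type A cells. After the same thinning, Foxi1 was detected in 31.6% and 40.6%. Thick ascending limb cells, which should lack Foxi1, had a UMI of it in 0.850% and 0.833% of cells at median depths of 15313 and 24686 UMIs. Principal cells had one in 19.8% and 13.7% of cells, and after thinning in 3.89% and 1.83%. The markers thus placed the cells among intercalated cells, and erythroid markers were at or near 0: of 6 erythroid genes none was detected in control type A cells, and 1 UMI of Hbb-bs was counted in ischemia. Red blood cell precursors also express Slc4a1.

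On the GRCm38 assembly, the build that mm10 denotes, Slc4a1 lies at chr11:102348824-102366203 on the minus strand and Aqp6 at chr15:99601400-99605477 on the plus strand. Atp6v1g3 lies at chr1:138273738-138289462 and Foxi1 at chr11:34204338-34208089. All are protein-coding genes in the GENCODE annotation. To show the sequence context of genes that define these cells, promoters were searched for the forkhead motif TGTTTAC or its reverse complement GTAAACA in the 250 bases before each RefSeq start. Of all genes with a window, 3.54% held it, against 1 of 19 V-ATPase genes, 1 of 17 identity genes and 0 of 15 acid-base genes. The matches in Atp6v1b1, the kidney form of the pump's B subunit, and in P2ry14, a receptor for UDP-sugars, lay 98 and 208 bases before a RefSeq start, at chr6:83742899-83742945 (plus strand) and chr3:59131300-59131346 (minus strand). The P2ry14 match precedes an internal RefSeq start, within the gene's GENCODE span of chr3:59113855-59153618. Both are printed 5′ to 3′ on the gene's strand with the motif in capitals. A match is a run of letters, not a measured binding site.
Atp6v1b1: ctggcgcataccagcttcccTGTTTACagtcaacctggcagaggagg
P2ry14: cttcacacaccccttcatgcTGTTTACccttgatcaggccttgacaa

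The V-ATPase set marked type A cells against principal cells but not against type B and non-A cells. The latter numbered 70 and 36 cells, and principal cells 257 and 219. Levels are CPM of UMIs summed over the cells of a class in a library. With genes of at least 50 UMIs in at least 10 cells considered, 3.0% of 10870 genes were at least 2-fold higher in type A than in principal cells in both libraries, and 3.97% at least 2-fold lower. Of 25 V-ATPase genes, 23 were considered, and 9 were at least 2-fold higher and 0 lower. Atp6v1g3 was at 4114 CPM in type A, 5103 in type B and non-A, 714 in principal, 39.7 in endothelial and 18.2 in thick ascending limb cells of the control library. In ischemia the order of the first 3 was the same, at 4656, 4892 and 605 CPM, but the intervals of the intercalated classes overlapped. Atp6v0d2 followed the same order in the control, at 812, 973 and 175 CPM, whereas in ischemia type A cells had the highest level, at 743, 652 and 85.4 CPM, again with overlapping intervals for the intercalated classes. Against type B and non-A cells, 0 of the 21 V-ATPase genes considered differed by 2-fold in both libraries, where 1.82% of 8123 genes were higher and 1.66% lower. Atp6v1g3 and Atp6v0d2 thus did not separate the intercalated classes from each other. The Atp6v1g3 level of the principal class stood above that of endothelial cells, and the part of mixed barcodes in it was not tested.

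**Figure D2:**
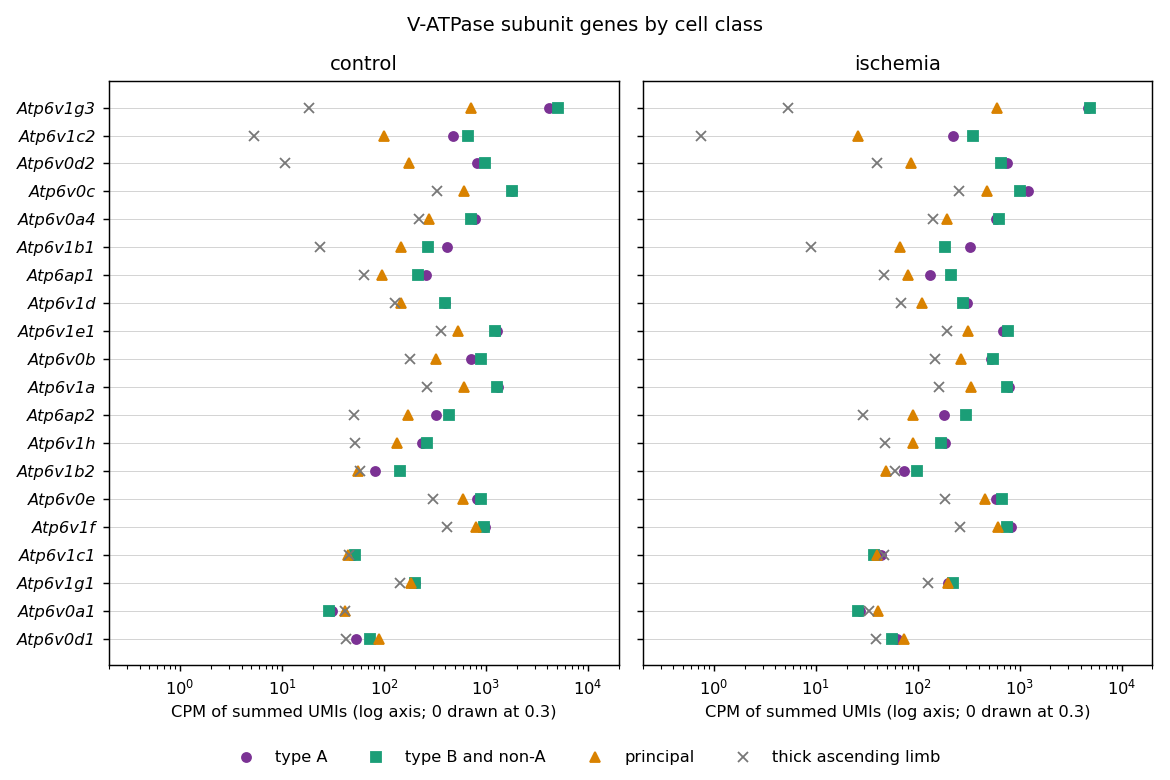
CPM of 20 V-ATPase genes in type A, type B and non-A, principal and thick ascending limb cells of each library. Type A and type B and non-A cells have like levels, for example 4114 and 5103 CPM of Atp6v1g3 in the control, and both lie above principal cells at 714 CPM.

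Type A cells differed from principal cells in a broad set of receptors and regulators. Of 19 identity and receptor genes, 18 were considered. In both libraries 13 were at least 2-fold higher in type A cells and 0 lower, where 3.0% and 3.97% of all genes were. Kit, the stem cell factor receptor, was 5.09-fold higher in the control and 12.9-fold in ischemia. Adgrf5, an adhesion receptor, was 5.72-fold and 13.0-fold higher, and Foxi1 was 4.60-fold and 6.60-fold higher. Among genes chosen by rank, Avpr1a, the V1a vasopressin receptor, was 8.49-fold and 8.80-fold higher, and Ptger3, the prostaglandin EP3 receptor, 10.7-fold and 7.96-fold. Oxgr1, the receptor for 2-oxoglutarate, was 6.06-fold and 11-fold higher. In the other direction, Aqp4, a basolateral water channel of principal cells, was at 12.7 CPM in control type A cells, with 81.2% of its UMIs in 1 cell, and below the floor in ischemia, against 307 and 106 CPM in principal cells. Of 10 principal cell genes considered, 7 were at least 2-fold lower in type A cells and 0 higher, where 3.97% and 3.0% of all genes were.

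A smaller set separated type A from type B and non-A cells. Of 17 identity genes considered, Adgrf5, Dmrt2, Kit and P2ry14 were at least 2-fold higher in both libraries and Spink8 was lower. Of all genes, 1.82% were higher and 1.66% lower. Dmrt2, a transcription factor, was at 146 and 173 CPM in type A against 20.3 and 13.8 CPM in type B and non-A cells. Muc20, a mucin, was 16.9-fold and 15.5-fold higher, and Pgm5, a phosphoglucomutase-like protein of cell junctions, was 16.5-fold and 13.1-fold higher. Rhbg, a basolateral ammonia transporter, was 2.53-fold and 2.45-fold higher. Lower genes included Lsamp, a cell adhesion molecule, at 5.54 CPM in the control and below the floor in ischemia, against 1129 and 990 CPM. Car15, a membrane-bound carbonic anhydrase, was at 338 and 103 CPM against 1805 and 2282 CPM. Slc4a9, the exchanger AE4 and usually counted as a type B marker, was also present in type A cells, at 543 and 608 CPM against 1447 and 900 CPM.

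The contrast between kidneys was then followed in type A cells. Of 5347 genes considered, 281 (5.26%) had a level at least 2-fold higher in ischemia and 203 (3.8%) at least 2-fold lower. With mitochondrially encoded genes left out of the totals, 207 were higher and 244 lower, so the balance of directions depended on the scaling. The median log2 ratio of ischemia to control over all genes was 0.08. In unmixed cells, 150 of 3032 genes (4.95%) were higher and 91 (3.0%) lower. The same comparison in principal cells gave 429 higher (4.08%) and 429 lower (4.08%) of 10508 genes. Type B and non-A cells had 4.17% of 6049 genes higher and 4.13% lower, and thick ascending limb cells 7.73% and 7.68% of 10765. All of these classes come from the same 2 libraries, so a shift of a whole library would be in both.

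**Figure D3:**
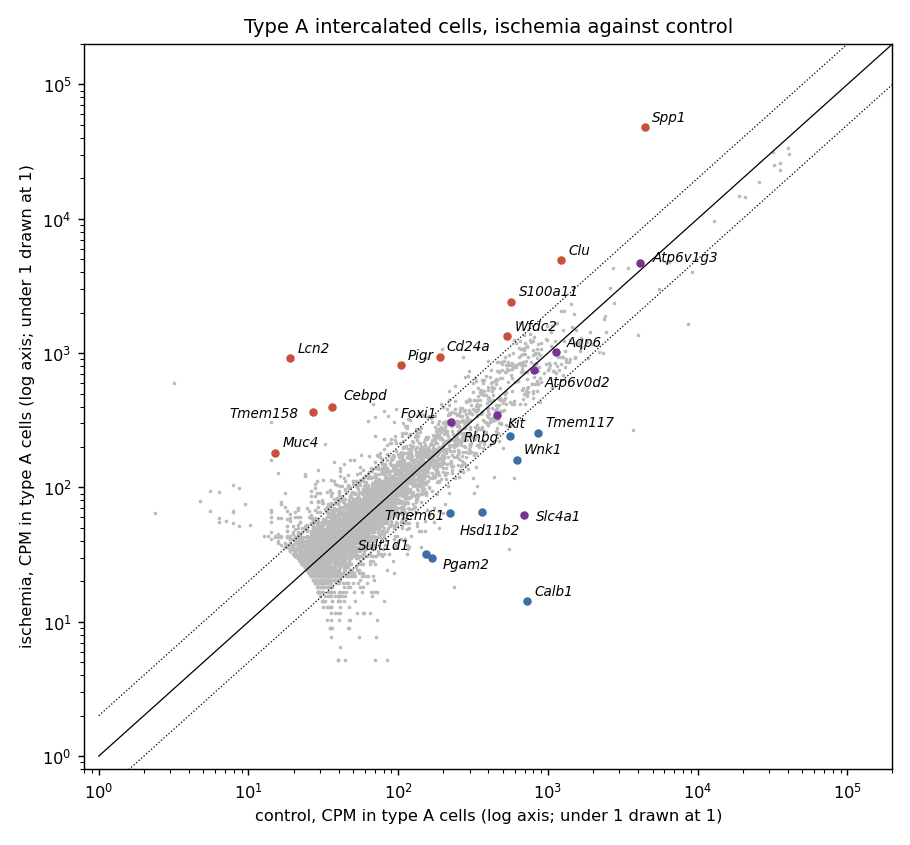
CPM in control type A cells (horizontal, log axis) and ischemia type A cells (vertical, log axis) for each of 5347 genes, with dotted lines at 2-fold. Above the upper line lie 281 genes, among them Spp1 at 4432 and 47869 CPM, and below the lower line lie 203 genes.

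Slc4a1 is 1 of the 9 genes that chose the cells, so its levels describe them and test nothing. Its level was 687 CPM (642 to 735) in control and 61.8 CPM (45.6 to 81.9) in ischemia type A cells, a ratio of 0.0899. Per cell, the median was 687 CPM in the control and 37.9 CPM in ischemia, and all 32 ischemia cells lay below the control median. The highest ischemia cell had 387 CPM, within the control range of 0 to 2147 CPM. Aqp6, a water and anion channel of intracellular vesicles, was at 1134 and 1016 CPM. Since Slc4a1 also chose the cells, the comparison was repeated with cells chosen on Aqp6 alone, which took 44 control and 32 ischemia cells. These were 44 of the 57 control cells and the same 32 ischemia cells, so the repeat is not independent. There Slc4a1 was at 764 CPM (709 to 821) and 61.8 CPM, a ratio of 0.0809 (0.0591 to 0.108), while Atp6v1g3 was at 4652 and 4656 CPM. Barcodes left out only for a Ptprc UMI, which met the same Slc4a1 and Aqp6 limit, gave 805 and 58.6 CPM of Slc4a1. A type A cell with little of both genes would be missed by either definition.

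Of 26 acid-base and ion transport genes, 20 were considered, and 7 were at least 2-fold lower and 0 higher, where 3.8% and 5.26% of all genes were, with a median log2 ratio of -0.68. Principal cells had 3 of 22 lower with a median of -0.64, beside 4.08% of all genes, and type B and non-A cells 6 of 17 with a median of -0.50, beside 4.13%. Rhbg was at 560 CPM (520 to 603) and 239 CPM (206 to 276), a ratio of 0.428, and 31 of 32 ischemia cells lay below the control median of 511 CPM. Without cells of the highest doublet scores the Rhbg ratio was 0.505, just short of 2-fold. Bsnd, the barttin subunit of chloride channels, was at 116 and 34.8 CPM, and Car15 at 338 and 103 CPM. Atp4a, the gastric-type H+/K+-ATPase, Slc4a4, a sodium bicarbonate cotransporter, and Kcnj10, a potassium channel, had ratios of 0.195, 0.322 and 0.179. The last of the 7, Slc26a7, had 36.5% of its control UMIs in 1 cell. In unmixed type A cells 12 genes were considered, 5 of them with a ratio above 1. The 3 that remained at least 2-fold lower, beside 3.0% of all genes, were Rhbg, Bsnd and Car15. Rhcg, the apical ammonia transporter, had a ratio of 0.510 that was 0.465 at a mitochondrial limit of 25%, and Car2, the cytosolic carbonic anhydrase, 0.668. The levels of Slc4a9 were 543 and 608 CPM, with a ratio of 1.12 (0.993 to 1.26).

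Of 20 V-ATPase genes considered, 1 was at least 2-fold lower and 0 higher, near the shares of all genes, and the median log2 ratio was -0.37. Atp6v1c2, the C2 subunit, was the lower one, at 469 CPM (432 to 508) and 221 CPM (190 to 257). Its ratio of 0.472 was 0.507 without the deepest ischemia cell and 0.577 without cells of the highest doublet scores, so that it did not stay beyond 2-fold. Atp6v1g3 had a ratio of 1.13 (1.08 to 1.18) and Atp6v0d2 of 0.915 (0.825 to 1.01), whereas Atp6v1b1 and Atp6v0a4, the kidney forms of the B and a subunits, had 0.780 and 0.746.

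Of 17 identity and receptor genes considered, 1 was at least 2-fold higher and 1, Atp6v1c2, at least 2-fold lower, a count near the shares of all genes (5.26% higher and 3.8% lower), with a median log2 ratio of 0.02 that was -0.19 in unmixed cells. P2ry14 was at 84.6 CPM (69.4 to 102) and 207 CPM (177 to 242), a ratio of 2.45 that was 1.96 in unmixed cells. It was without a UMI in 26 of 57 control cells and in 5 of 32 ischemia cells. Foxi1 had a ratio of 1.36 (1.14 to 1.63), Dmrt2 of 1.19 (0.942 to 1.49) and Kit of 0.756 (0.652 to 0.875). The Dmrt2 ratio lay on the other side of 1, at 0.852, in unmixed cells.

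**Figure D4:**
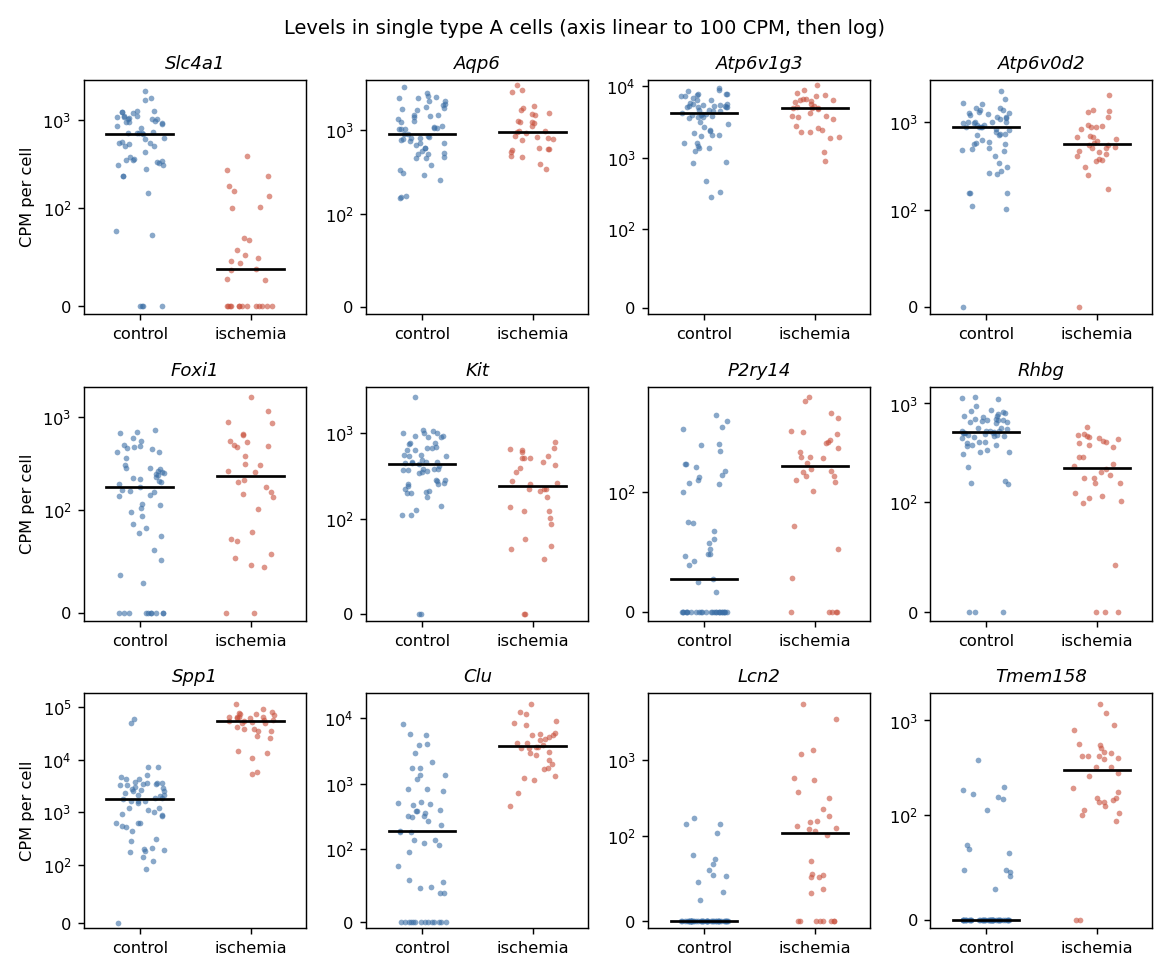
CPM of 12 genes in each type A cell, with control and ischemia cells as points and the median of each library as a line. The Slc4a1 median is 687 CPM in the control and 37.9 CPM in ischemia, and the Spp1 median 1824 and 54824 CPM.

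Most of the epithelial injury genes considered were higher in ischemia type A cells. Of 22 injury genes, 11 were considered, with a median log2 ratio of 1.99. Of these, 9 were at least 2-fold higher and 0 lower, where 5.26% and 3.8% of all genes were. Genes with few control UMIs, such as Lcn2 and S100a6, passed the filter mainly through their ischemia UMIs. Such a gene could only be counted as higher, so this count is partly set by the filter and is a description. The same limit holds for the other list counts of ischemia against control. Spp1, which encodes the secreted protein osteopontin, was at 4432 CPM (4317 to 4550) and 47869 CPM (47383 to 48358), a ratio of 10.8. Of the 5603 control UMIs of Spp1, 1412 lay in 1 cell and 1342 in another, so the control sum rests much on them. Every one of the 32 ischemia cells lay above the control median of 1824 CPM, and 13 lay above the highest control cell at 59523 CPM. Endothelial cells, a guide to free RNA, had 608 and 6184 CPM of Spp1. Clu, the secreted chaperone clusterin, was at 1230 and 4896 CPM, a ratio of 3.98 that was 6.19 in unmixed cells. S100a11, a calcium-binding protein, had a ratio of 4.25, Tmsb10, an actin-binding peptide, of 4.97, and Krt18, a simple epithelial keratin, of 2.78, which was 1.90 without the highest doublet scores. Havcr1, the proximal injury marker KIM-1, did not pass the filter and stood at background. It had a UMI in 34.4% of ischemia type A cells against 35.9% of the shallower endothelial cells, and after thinning in 0.0% against 14.7%.

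The level of Lcn2, which encodes the iron-siderophore-binding protein NGAL, rested on few cells. It was at 19.0 CPM (12.2 to 28.2) and 918 CPM (852 to 988), a ratio of 48.4, but 1 cell held 55.7% of the ischemia UMIs. Without that cell, the deepest, the ratio was 23.7, and in unmixed cells it was 11.8. The median ischemia type A cell had 109 CPM. Summed over cells, endothelial cells of the ischemia library, which should lack it, had 250 CPM, and thick ascending limb and principal cells had 4525 and 6562 CPM. The share of type A cells with an Lcn2 UMI was 22.8% in the control and 75% in ischemia, against 9.75% and 55.4% of endothelial cells with medians of 4242 and 5331 UMIs. At an equal depth of 2000 UMIs per cell these shares were 5.26% and 28.1% for type A and 4.67% and 27.3% for endothelial cells, so detection stood at background. S100a6 was also uneven, with 45.0% of its ischemia UMIs in 1 cell and none in 17 of 32 ischemia cells.

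Immediate early genes are induced within minutes of many stimuli, including tissue dissociation. Of 14 considered in type A cells, 8 were at least 2-fold higher, beside 5.26% of all genes, and 0 lower. All 14 had a ratio above 1, as did 3044 of all 5347 genes. Junb was at 290 CPM (261 to 322) and 672 CPM (616 to 732), and 30 of 32 ischemia cells lay above the control median of 172 CPM. The Junb ratio of 2.32 was 1.93 at a mitochondrial limit of 25% and 1.94 as the mean of the cells' own CPM. Atf3, a stress-induced factor, was at 112 and 256 CPM. Fos had a ratio of 2.01 that ranged from 1.63 to 2.42 over the alternatives. Principal cells had 1114 CPM of Junb and 1468 CPM of Fos in the control, above type A cells, and 690 and 1145 CPM in ischemia. Of 16 immediate early genes considered in principal cells, 1 was at least 2-fold higher and 0 lower, where 4.08% and 4.08% of all genes were. In type B and non-A cells 1 was higher and 2 lower of 14, where 4.17% and 4.13% of all genes were.

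Of 26 innate defence genes, 6 were considered in type A cells, and 5 were at least 2-fold higher, whereas 1 of the 3 considered in unmixed cells was, beside 5.26% and 4.95% of all genes. That gene, Wfdc2, a whey acidic protein of the epithelium, was at 536 and 1337 CPM, a ratio of 2.49 that was 3.87 in unmixed cells. Defb1, the constitutive beta-defensin of the distal nephron, was at 2723 CPM (2633 to 2815) and 4335 CPM (4190 to 4484), a ratio of 1.59, and was above the control median in 27 of 32 ischemia cells. Its principal cell levels were 2534 and 2599 CPM.

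Of 13 interferon and antigen presentation genes, all 5 considered were at least 2-fold higher in ischemia type A cells, where 5.26% of all genes were. In unmixed cells 0 of 4 were, where 4.95% of all genes were. B2m, the light chain of MHC class I, had a ratio of 3.39 in all and 1.34 in unmixed type A cells. Cd74, the invariant chain of MHC class II and here a macrophage marker, was at 7.91 and 67.0 CPM. The summed level of the 5 macrophage markers was 11.9 and 70.8 CPM with Cd74 the most abundant, and the part of macrophage RNA in these results was not tested.

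All 23 nuclear genes of the respiratory chain were considered, all had a ratio below 1, and 0 were beyond 2-fold, with a median log2 ratio of -0.43. The 13 mitochondrially encoded genes had the same median, -0.43, and 1 of them, mt-Atp8, was at least 2-fold lower, beside 3.8% of all genes. Ndufb10, a complex I subunit, was the nearest to 2-fold, at 559 CPM (519 to 602) and 285 CPM (248 to 325). The nuclear genes had a median of -0.48 in type B and non-A cells, with 1 at least 2-fold lower beside 4.13% of all genes. Their median in principal cells was -0.12. Of 16 glycolysis and hypoxia genes considered, the median log2 ratio was -0.06, and 5 had a ratio above 1. Among them 0 were at least 2-fold higher and 3 lower, where 5.26% and 3.8% of all genes were. The 3 were Vegfa, an angiogenic factor, at 104 and 41.2 CPM, Ndrg1, and Pdk1, a kinase that inhibits pyruvate dehydrogenase. In unmixed cells 14 were considered, with 1 higher and 1 lower, beside 4.95% and 3.0% of all genes. The Vegfa ratio of 0.395 was 0.511 without the highest doublet scores and 0.537 as the mean of the cells' own CPM, and the Ndrg1 ratio of 0.366 was 0.787 in unmixed cells. Gapdh was at 837 and 833 CPM.

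Of 16 heat shock and stress genes considered, Dnajb1 and Hspb1, both chaperones, were at least 2-fold higher, with ratios of 3.22 and 3.0, beside 5.26% of all genes. In unmixed cells 1 of 11 was, beside 4.95% of all genes. Of 6 growth arrest genes considered, 2 were at least 2-fold higher, beside 5.26% of all genes: Cdkn1a, the cell cycle inhibitor p21, and Gadd45b. Control cells held at most 1 UMI of Cdkn1a each, in 8 of 57 cells. It passed the filter only through its ischemia UMIs, so its place in this count is a description. Cdkn1a was at 6.33 and 92.7 CPM with 47.2% of its ischemia UMIs in 1 cell, and it had too few UMIs in unmixed cells to be compared.

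**Figure D5:**
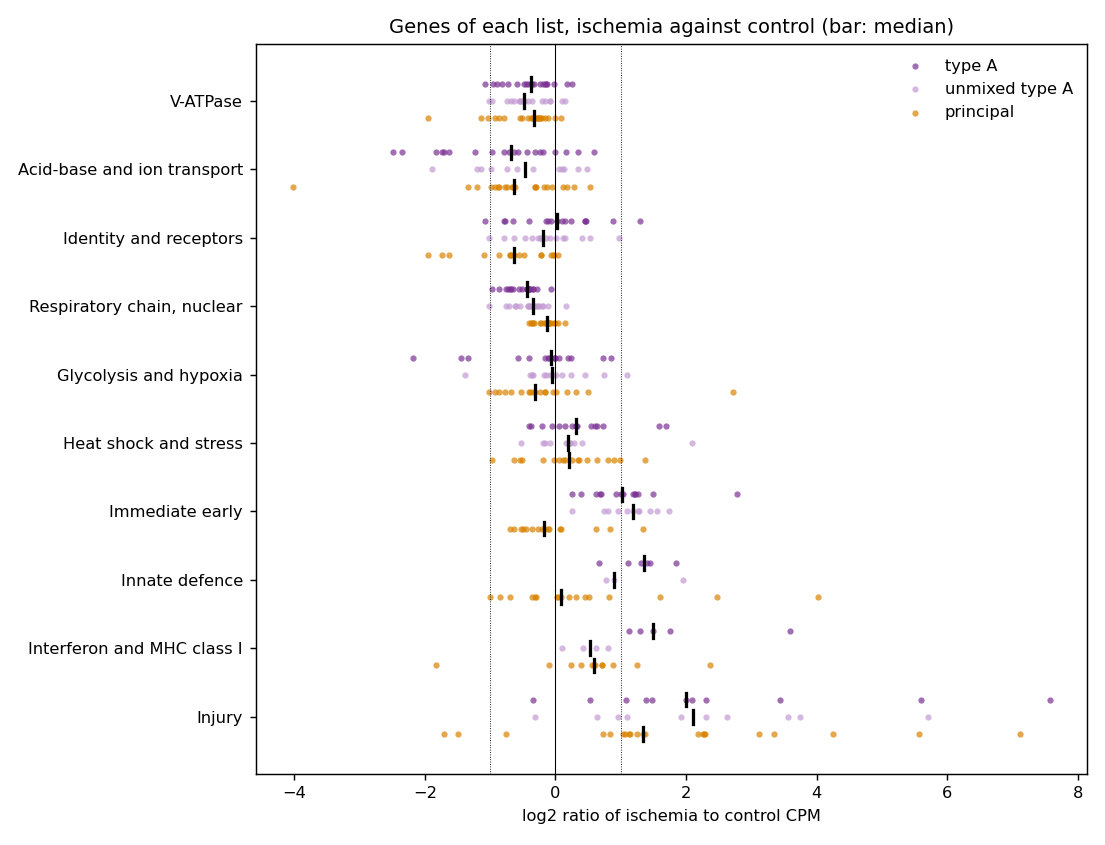
Log2 ratio of ischemia to control for each gene of 10 lists in type A, unmixed type A and principal cells, with 1 point per gene. Injury genes have a median of 1.99 in type A cells and 1.33 in principal cells, and immediate early genes 1.02 and -0.18.

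Genes with the highest ratios by rank included several outside these lists. Tmem158, a membrane protein, was at 26.9 CPM (18.6 to 37.6) and 362 CPM (321 to 407), a ratio of 13.5. It was without a UMI in 42 of 57 control cells and in 2 of 32 ischemia cells. Cebpd, a transcription factor of the acute phase response, was at 36.4 and 397 CPM, a ratio of 10.9, and 14 ischemia cells lay above every control cell. Principal cells had ratios of 1.18 for Tmem158 and 1.60 for Cebpd, and type B and non-A cells of 7.52 and 1.95. Pdlim3, a cytoskeletal protein, had a ratio of 6.17 in type A and 1.26 in principal cells. The differences between these ratios were not tested. Pigr, the epithelial receptor that carries IgA to the lumen, was at 104 and 809 CPM, and its ratio of 7.80 stood beside 5.68 in principal and 25.2 in type B and non-A cells. Muc4, a membrane mucin, was at 15 and 182 CPM, and Cd24a, a surface protein, at 189 and 941 CPM, with all 32 ischemia cells above the control median of 144 CPM.

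Among the lowest ratios, genes of neighbouring segments stood beside genes of the type A cells. Hsd11b2, which inactivates glucocorticoids in mineralocorticoid-responsive cells, was at 361 and 65.7 CPM, a ratio of 0.182. Tmem117, a membrane protein, was at 856 CPM (806 to 908) and 255 CPM (221 to 293), with a ratio of 0.298 and of 0.250 in unmixed cells. Slc16a7, a monocarboxylate transporter, was at 321 and 90.1 CPM, and Sult1d1, a sulfotransferase, at 153 and 32.2 CPM. Tmem61 was at 221 and 64.4 CPM. Wnk1, a kinase that controls distal salt transport, had a ratio of 0.261 in all and 0.548 in unmixed cells. Klhl3, which targets WNK kinases for degradation, had a ratio of 0.246 in all type A cells. In unmixed cells Klhl3 had too few UMIs for the filter, and its ratio was 0.954 (0.408 to 2.18). The lower level of Klhl3 was thus not seen in unmixed cells, though the interval there is wide. Calb1, the calcium-binding protein of the connecting tubule and a gene of the distal sum that defines unmixed cells, was at 723 and 14.2 CPM in all type A cells, beside 84.9 and 12.8 CPM in endothelial cells. The summed proximal tubule markers were 929 and 407 CPM, with Kap, an androgen-regulated proximal gene, the most abundant at 593 and 324 CPM. Endothelial cells had 2064 and 1183 CPM of Kap. Umod, the thick ascending limb protein uromodulin, was at 150 and 207 CPM in type A cells and at 142 and 331 CPM in endothelial cells. Of 6 principal cell genes considered, Hsd11b2 and Kcnj1, the potassium channel ROMK, were at least 2-fold lower in ischemia, beside 3.8% of all genes. Fxyd4, a regulator of the sodium pump, was higher, beside 5.26% of all genes, at 160 and 339 CPM with 33.5% of its ischemia UMIs in 1 cell. In unmixed cells 4 principal cell genes were considered, with 0 lower and 1 higher, beside 3.0% and 4.95% of all genes. There Hsd11b2 had too few UMIs to be compared.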

How the data were processed

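The authors deposited Cell Ranger 7.0.0 UMI counts (mm10, per the labels) for every barcode of 2 libraries made with the 10x Genomics 3′ v2 protocol after enzymatic digestion, with totals of 142686238 (control) and 142959737 (ischemia) UMIs. UMI counts were used as deposited. Cells were chosen by the thresholds given above and summed per class and library with Python 3.11.15 and scipy 1.17.1. Levels are CPM with exact Poisson intervals, ratios have exact conditional binomial intervals, and shares have Clopper-Pearson intervals. Genes needed 50 UMIs in 10 cells over both groups compared. A gene could therefore pass through the UMIs of 1 group alone, and counts of genes beyond 2-fold include such genes. Named genes were list members and the 12 highest and lowest ratios (10 for classes) with at least 100 UMIs, in 20 cells, and at most 20% in 1 cell. The text gives examples of them. The cells and lists were chosen with earlier results of these data known. A gene without UMIs in a group was set at 3 counts. Scrublet (scanpy 1.11.5) marked 0.0111% and 0.0% of barcodes, so the highest 8% of scores were left out as an alternative. Aldoa and Ddit3 name more than 1 identifier and were not used. Positions came from GENCODE M21 and promoters from RefSeq, GRCm38.p6. The scripts were tested on simulated data.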

Additional observations from a re-analysis of the deposited data

Results flagged for a closer look

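Gadd45b, a gene induced by stress and growth arrest, was the one gene of 191 listed or named genes considered in both classes that was at least 2-fold higher in ischemia in type A cells and at least 2-fold lower in principal cells. It was at 55.4 CPM (43.2 to 70.0) in control and 129 CPM (105 to 157) in ischemia type A cells, a ratio of 2.33 (1.70 to 3.20), and at 158 and 59.2 CPM in principal cells, a ratio of 0.374. Of the ischemia UMIs in type A cells, 24.0% lay in 1 cell, and the ratio in unmixed type A cells was 2.42. Type B and non-A cells had a ratio of 2.23. The difference between the classes was not tested, since each condition has 1 library.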

How the results depend on the processing

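No paired analysis was possible because each condition has 1 library. Among the single genes followed under every alternative, none beyond 2-fold turned to the other side of 1, whereas Atp6v0d2 did at 1.02 without the highest doublet scores and Aqp6 at 1.04 by the cells' own CPM. With a minimum of 200 UMIs per gene, 79 genes were at least 2-fold higher and 47 lower in ischemia type A cells, 214 and 197 in principal cells, and 185 and 270 in type A against principal cells. With a minimum of 20, the first of these were 564 and 456, and 668 and 706. Weighting cells equally by their own CPM gave 265 genes lower in type A than in type B and non-A cells, against 135. Thinning to 2000 UMIs gave shares of control and ischemia type A cells with a UMI of 75.4% and 68.8% for Atp6v0d2, 31.6% and 40.6% for Foxi1, and 59.6% and 50% for Kit. Unmixed cells, an alternative chosen after seeing the data like the Aqp6 definition and the loss of the deepest cell, gave shares of 0.414% and 0.360%, 150 genes higher and 91 lower in ischemia, and 270 lower than in type B and non-A cells. Of 57 single genes, 49 kept their side of the 2-fold limit in unmixed cells, 51 without the highest doublet scores and 53 without the deepest ischemia cell. The single genes followed include Slc4a1, Aqp6 and the 12 highest and 12 lowest ratios of these data. A high count was therefore largely set by their choice, and it is a description. Genes with too few UMIs for the filter in unmixed cells, such as Klhl3, are counted too. The Slc4a1 ratio ranged from 0.0760 to 0.0953. With 57 and 32 cells, genes under about 50 UMIs could not be compared, and no value has a replicate check.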

Other observations

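The barcodes left out only for a Ptprc UMI, 12 in each library, had 3141 and 3913 CPM of Atp6v1g3 and 1287 and 1081 CPM of Aqp6, beside 4114 and 4656 and 1134 and 1016 CPM in type A cells. They held 1 UMI of Cd74 in the control, under the floor of 3, and 213 in 10 of 12 ischemia barcodes, where the sum was 543 CPM and the median barcode 68.7 CPM. Their Spp1 level was 1875 and 43073 CPM.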
